A study of Arabidopsis thaliana with 24 samples.

Results

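SWEET4 (AT3G28007) and cwINV6 (AT5G11920) are a pair of Arabidopsis thaliana genes of sugar transport and sugar cleavage. They were taken as the probe sets that the platform's probe-to-gene table names for them, 1 probe set each, out of 16552 genes with a named probe set. They were picked from these same data because their levels were high wherever the chromatin remodelling ATPase BRAHMA (BRM) was lost. The effect of BRM loss on these 2 genes is therefore given as a description with no test. The measurements come from 24 Affymetrix whole-transcript arrays hybridised with biotin-labelled cDNA from total RNA, with 3 biological replicates in each of 8 groups. The groups were the double mutant brm-1 hd2c-3, the single mutants brm-1 and hd2c-3, and WT, all in the Col-0 background, each after 1 h at 38 °C (heat) and before it (control). The mutants are called brm hd2c, brm and hd2c below. All plants were 3 weeks old and grown on soil in long days. Each mutation was represented by 1 allele. The submitters state that they kept replicates in which certain unnamed marker genes had like levels, so the spread between replicates may be smaller than among plants taken at random.

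SWEET proteins are membrane carriers that let sugars move down their concentration gradient, out of a cell, into it, or between the cytosol and the vacuole. SWEET4 carries hexoses across the plasma membrane and is known from veins of leaves and from roots and flowers. cwINV6 belongs by sequence to the cell wall invertases, enzymes that split sucrose in the wall so that the hexoses can be taken up. Its product is known to act as a fructan exohydrolase, which is also the name the reference gene table lists as a synonym, and it is not a transporter. BRM is the motor of a SWI/SNF complex that moves nucleosomes, and HD2C is a plant-type histone deacetylase that binds to such complexes.

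The deposited values are log2 intensities, so a difference of 1 is a doubling. The array medians lay between 3.42 and 3.65. Neither BRM nor HD2C has a named probe set, so their transcripts give no check of the genotypes here. Of 7 green leaf markers only RCA (rubisco activase) had a named probe set, with group means of 11.03 to 11.10 in the heat groups and 10.72 to 10.79 in the control groups. Of 8 root markers only EXPA7 was measured, with group means of at most 2.43, below every array median. Of 4 senescence markers only SAG101 was measured. None of the 8 flower, 5 phloem and vein or 4 seed markers had a named probe set, so a change in the make-up of the plants could not be followed with them. The labels name no tissue beyond plants. In bulk RNA, more cells that express a gene and more transcript per cell cannot be told apart.

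In heat, SWEET4 was at 5.96, 6.08 and 6.29 on the 3 arrays of brm hd2c, given here and below from low to high, and at 5.87, 5.98 and 6.31 in brm, against 4.09, 4.42 and 4.59 in hd2c and 4.45, 4.61 and 4.61 in WT. All 6 heated arrays without BRM lay above all 6 heated arrays with BRM. The choice of SWEET4 favours this separation, here and in control, and its share over all genes was not computed. The mean was 6.11 ± 0.16 in brm hd2c (SD, n = 3), 6.05 ± 0.23 in brm, 4.36 ± 0.26 in hd2c and 4.55 ± 0.09 in WT. On the linear scale SWEET4 was 3.35-fold higher in brm hd2c than in hd2c (log2 difference 1.75 ± 0.14, here and below the moderated standard error, SE, with 3 arrays per group) and 2.82-fold higher in brm than in WT (1.50 ± 0.14).

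In control, SWEET4 was at 7.62, 7.68 and 7.71 in brm hd2c and at 7.70, 7.76 and 7.94 in brm, against 6.20, 6.22 and 6.42 in hd2c and 6.06, 6.13 and 6.28 in WT. The 6 arrays without BRM again lay above the 6 arrays with it, at a higher level than in heat. The mean was 7.67 ± 0.05 in brm hd2c, 7.80 ± 0.12 in brm, 6.28 ± 0.12 in hd2c and 6.15 ± 0.12 in WT. The difference was 1.39 ± 0.14 for brm hd2c against hd2c (2.62-fold) and 1.64 ± 0.14 for brm against WT (3.12-fold). Heated plants without BRM, from 5.87 to 6.31, overlapped with unheated plants that have BRM, from 6.06 to 6.42.

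**Figure D1:**
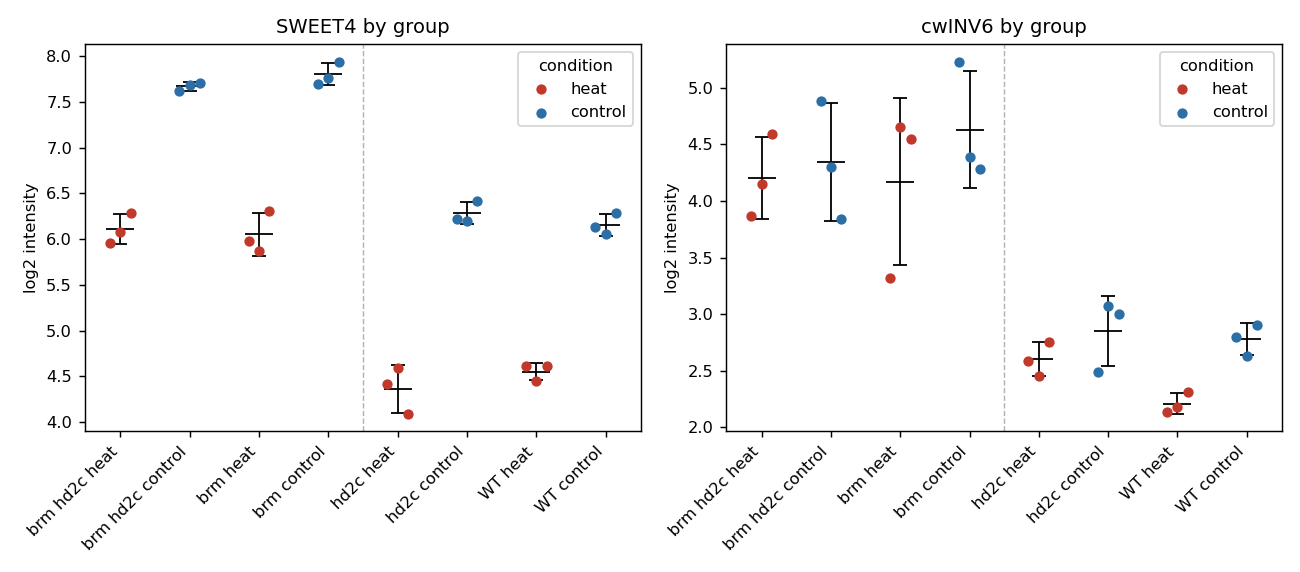
Log2 intensity of SWEET4 (left) and cwINV6 (right) in the 8 groups. Points are single arrays, the horizontal mark is the group mean and the bar its SD over 3 arrays; the dashed line parts groups without BRM from groups with it. SWEET4 forms 3 levels, near 7.7, near 6.1 and near 4.5, and cwINV6 forms 2, with arrays from 3.32 to 5.23 without BRM and from 2.14 to 3.07 with it.

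In heat, cwINV6 was at 3.87, 4.15 and 4.59 in brm hd2c and at 3.32, 4.55 and 4.65 in brm, against 2.45, 2.59 and 2.75 in hd2c and 2.14, 2.18 and 2.31 in WT. In control it was at 3.84, 4.30 and 4.88 in brm hd2c and at 4.28, 4.39 and 5.23 in brm, against 2.49, 3.00 and 3.07 in hd2c and 2.63, 2.80 and 2.90 in WT. The 12 arrays without BRM, from 3.32 to 5.23, did not overlap with the 12 arrays with BRM, from 2.14 to 3.07, whatever the condition. The choice of cwINV6 favours this separation, and its share over all genes was not computed. The difference between brm and WT was 1.96 ± 0.30 in heat (3.90-fold) and 1.86 ± 0.30 in control (3.62-fold). Between brm hd2c and hd2c it was 1.61 ± 0.30 in heat (3.04-fold) and 1.48 ± 0.30 in control (2.80-fold).

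The replicates of cwINV6 scattered more than those of SWEET4 where BRM was lost. The SD of cwINV6 within a group ran from 0.36 to 0.74 in the 4 groups without BRM and from 0.09 to 0.31 in the 4 groups with it. For SWEET4 the ranges were 0.05 to 0.23 and 0.09 to 0.26. The SE pools the spread over all 8 groups and so takes no account of this difference between groups. The widest group was brm in heat, where replicate 1 was at 3.32 beside 4.55 and 4.65. With BRM present, every value of cwINV6 was below the lowest array median of 3.42, near the low end of the scale. No detection call was used here, so it is not known how far these values are above background, and the folds of cwINV6 against WT and hd2c hold for the deposited scale only and may understate the change in transcript.

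The double mutant was also set against WT. SWEET4 differed by 1.51 ± 0.14 in control and 1.56 ± 0.14 in heat, and cwINV6 by 1.56 ± 0.30 and 1.99 ± 0.30. Of all 16552 genes, 11.4% were higher in brm than in WT in control on every array, 10.2% in heat, 9.91% in brm hd2c against hd2c in control and 7.21% in heat. For brm hd2c against WT the shares were 11.2% in control and 10.6% in heat. In all 4 comparisons of BRM loss with its own background 203 genes (1.23%) were higher without overlap, and both SWEET4 and cwINV6 are among them, which the choice of the genes fixes.

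Heat was tested as a contrast for which the genes were not chosen. The choice did use the levels of brm hd2c and brm in both conditions, which may favour a small heat difference in these 2 genotypes. SWEET4 fell in all 4 genotypes. The log2 value fell by 1.56 ± 0.14 in brm hd2c (2.95-fold, limma adjusted p = 1.74e-08), by 1.74 ± 0.14 in brm (3.35-fold, adjusted p = 3.47e-09), by 1.92 ± 0.14 in hd2c (3.78-fold, adjusted p = 7.32e-10) and by 1.60 ± 0.14 in WT (3.03-fold, adjusted p = 2.57e-08), with n = 3 per group. In each genotype all 3 heated arrays lay below all 3 control arrays. Genes called lower after heat made up 12.1% of all genes in brm hd2c, 8.51% in brm, 11.2% in hd2c and 7.48% in WT. In all 4 genotypes 592 genes (3.58%) were called lower, SWEET4 among them.

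cwINV6 passed the limma test for heat in none of the 4 genotypes, nor at an unadjusted p under 0.05. In brm hd2c and brm the choice of the gene may favour this. The difference between heat and control was −0.13 ± 0.30 in brm hd2c (adjusted p = 0.833), −0.46 ± 0.30 in brm (adjusted p = 0.381), −0.26 ± 0.30 in hd2c (adjusted p = 0.608) and −0.56 ± 0.30 in WT (adjusted p = 0.264). The 95% intervals reached from −1.18 to 0.05 in WT and from −0.75 to 0.48 in brm hd2c, so both a fall of more than 1 on the log2 scale and no fall at all lie within the interval in WT. In WT the 3 heated arrays lay below the 3 control arrays without overlap, and a fit of those 6 arrays alone, whose SE is 0.12, gave an adjusted p of 0.0155. In the other 3 genotypes the heated and the control arrays overlapped. The share of all genes whose heated and control arrays do not overlap was not computed, here or for SWEET4. With BRM loss, 7.21% to 11.4% of all genes were higher without overlap, so 3 arrays often part from 3 others. With single arrays left out, the value ran from −0.383 to 0.136 in brm hd2c, where it changed sign, and from −0.696 to −0.0295 in brm.

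No difference in the heat response of SWEET4 between genotypes passed the test of the difference itself. The heat response in brm was 0.15 ± 0.19 lower than that in WT (a larger fall, log2 difference −0.15, 95% interval −0.55 to 0.26, adjusted p = 0.948). The heat response in brm hd2c was 0.36 ± 0.19 above that in hd2c (a smaller fall, 95% interval −0.05 to 0.76, adjusted p = 0.591). A difference of up to 0.76 is thus within the interval. For cwINV6 the same differences were 0.11 ± 0.42 and 0.12 ± 0.42 (adjusted p = 0.986 and 0.969). All 4 also missed an unadjusted p of 0.05. Over all genes 0.187% were called in the first of these contrasts and 0.224% in the other. Each contrast is also a difference of BRM effects between heat and control. The choice of the genes for high levels wherever BRM was lost favours like effects, so equal heat responses are not shown.

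Loss of HD2C was tested with and without BRM. SWEET4 differed between hd2c and WT by 0.13 ± 0.14 in control (95% interval −0.16 to 0.41) and by −0.19 ± 0.14 in heat (−0.48 to 0.09). Between brm hd2c and brm it differed by −0.13 ± 0.14 in control (−0.41 to 0.16) and by 0.06 ± 0.14 in heat (−0.23 to 0.34). None of the 4 passed the limma test, nor did any at an unadjusted p under 0.05, and the adjusted p was 0.585 or more. The choice for high levels wherever BRM was lost favours like levels in brm hd2c and brm. The comparisons of these groups therefore do not show that their levels are equal. Called genes made up 0.00604% of all genes for hd2c against WT in control and 0.598% in heat, and 0.0423% and 4.80% for brm hd2c against brm.

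For cwINV6 the difference between hd2c and WT was 0.08 ± 0.30 in control and 0.39 ± 0.30 in heat, and between brm hd2c and brm it was −0.29 ± 0.30 in control and 0.03 ± 0.30 in heat (adjusted p of 0.614 or more). In heat the 3 hd2c arrays, from 2.45 to 2.75, lay above the 3 WT arrays, from 2.14 to 2.31, without passing the test. The share of all genes that do so was not computed, and nothing is read from it. The intervals of cwINV6 are wide, with −0.23 to 1.01 for hd2c against WT in heat and −0.91 to 0.33 for brm hd2c against brm in control. For cwINV6 too, the choice favours like levels in brm hd2c and brm, so equal levels are not shown.

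The effect of BRM loss was compared between the hd2c and the WT background. For SWEET4 it was smaller in hd2c by 0.26 ± 0.19 in control (log2 difference −0.26, adjusted p = 0.999) and larger by 0.25 ± 0.19 in heat (adjusted p = 0.759). For cwINV6 the differences were −0.37 ± 0.42 and −0.36 ± 0.42 (adjusted p = 0.999 and 0.850). None passed the limma test or an unadjusted p of 0.05, where 0.0483% of all genes were called in control and 0.199% in heat. The genes were chosen for high levels wherever BRM was lost, which favours a like effect in both backgrounds. These tests therefore do not show that the effect is equal in them.

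**Figure D2:**
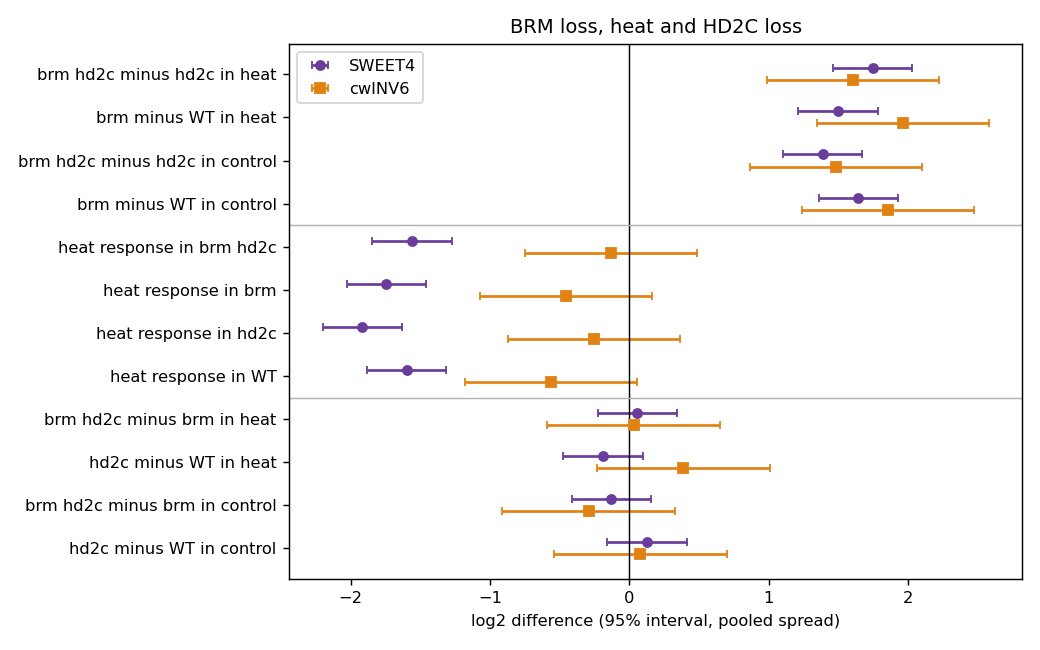
Log2 differences of SWEET4 (circles) and cwINV6 (squares) with 95% intervals from the fit of all 24 arrays; the upper 4 rows are BRM loss (a description, no test), the middle 4 the heat response and the lower 4 HD2C loss. The heat response of SWEET4 lies between −1.92 and −1.56, while the intervals of HD2C loss span 0 for both genes.

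In the order of its 8 group means, SWEET4 formed 3 levels. The upper level held brm in control (7.80) and brm hd2c in control (7.67), whose arrays overlapped. Then came hd2c in control (6.28), WT in control (6.15), brm hd2c in heat (6.11) and brm in heat (6.05), with each neighbour in the order overlapping the next. The lower level held WT in heat (4.55) and hd2c in heat (4.36), which also overlapped. The steps between levels were 1.39 and 1.50 wide, and no arrays overlapped across them. cwINV6 formed an upper level of brm in control (4.63), brm hd2c in control (4.34), brm hd2c in heat (4.20) and brm in heat (4.17), all overlapping with the next. After a gap of 1.32 came hd2c in control (2.85), WT in control (2.78), hd2c in heat (2.60) and WT in heat (2.21), where only the last step, of 0.39, was without overlap.

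Of the 17 SWEET genes of Arabidopsis 16 had a named probe set, and the other 15 beside SWEET4 were tested for BRM loss. None of them was called higher and a few were called lower. In brm against WT 0 of 15 were called higher and 2 lower in control, and 0 higher and 3 lower in heat. In brm hd2c against hd2c 0 were called higher and 1 lower in control, and 0 higher and 2 lower in heat. Genes called higher made up 2.22% and 2.79% of all genes in brm against WT in control and in heat, and genes called lower 2.04% and 2.31%. In brm hd2c against hd2c the shares were 1.61% and 3.01% higher, and 1.67% and 2.02% lower. At an unadjusted p under 0.05, limma gave 1 of the 15 higher and 4 lower in brm against WT in control, and 0 and 4 in heat, where the shares over all genes were 6.99% and 6.91% in control and 8.39% and 7.33% in heat. In brm hd2c against hd2c it gave 2 higher and 3 lower in control, and 0 and 4 in heat, beside 6.29% and 5.84% in control and 7.87% and 9.43% in heat. The median difference of the 15 genes lay between −0.17 and 0.00, against −0.04 to 0.01 for all genes. Many of the 15 had group means of at most 2.48, below every array median, so a missing call in them is not read as no change.

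SWEET13, a sucrose carrier of the plasma membrane, was lower without BRM in all 4 comparisons. It was at 3.33, 3.39 and 3.60 in brm hd2c in control and at 3.28, 3.47 and 3.50 in brm in control, against 4.22, 4.27 and 4.37 in hd2c in control and 3.98, 4.18 and 4.22 in WT in control. In heat it was at 2.99, 3.02 and 3.18 in brm hd2c and at 2.45, 2.87 and 2.99 in brm, against values of 3.79 or more in hd2c and 3.43, 3.76 and 4.04 in WT. It fell by 0.71 ± 0.15 in brm against WT in control (adjusted p = 0.00490) and by 0.97 ± 0.15 in heat (adjusted p = 1.94e-04). In brm hd2c against hd2c it fell by 0.85 ± 0.15 in both control and heat (adjusted p = 0.00133 and 8.81e-04). These arrays did not overlap between the groups compared, and the direction is the opposite of that of SWEET4. The share of all genes lower without overlap was not computed. In heat the values of SWEET13 without BRM, from 2.45 to 3.18, were below every array median.

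SWEET17, a fructose carrier of the vacuolar membrane, fell by 0.56 ± 0.15 in brm against WT in control (adjusted p = 0.0251), by 0.60 ± 0.15 in heat (adjusted p = 0.0143) and by 0.53 ± 0.15 in brm hd2c against hd2c in heat (adjusted p = 0.0346). Each of these 3 calls was lost in a fit of the compared groups alone. The call in control was also lost without replicate 2 or 3 of WT or replicate 1 or 3 of brm (at most changed to −0.41, adjusted p = 0.205), and the calls in heat without WT replicate 1, brm replicate 1 or 2, hd2c replicate 1 or 3 or brm hd2c replicate 1 or 3. SWEET16, its close relative at the same membrane, was lower by 0.68 ± 0.16 in brm against WT in heat (adjusted p = 0.0131, and 0.0525 without brm heat replicate 1). SWEET11, which exports sucrose from leaf phloem parenchyma, had group means from 9.10 to 9.76, and its differences with BRM loss were −0.15 to −0.02, none of them called.

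The other SWEET genes were tested for heat too. In brm hd2c 1 of the 15 was called higher and 1 lower, in brm 1 and 1, in hd2c 3 and 1, and in WT 2 and 0. Over all genes the shares called higher were 9.38% in brm hd2c, 7.28% in brm, 8.88% in hd2c and 5.80% in WT, and those called lower 12.1%, 8.51%, 11.2% and 7.48%. With 15 genes these counts are not set apart from the shares over all genes. SWEET1, a glucose carrier of the plasma membrane, rose 1.99-fold in brm hd2c, 2.14-fold in brm, 1.79-fold in hd2c and 1.57-fold in WT, with an SE of 0.19 on the log2 scale (adjusted p from 2.12e-04 to 0.0231). The call in WT was lost without WT control replicate 1 or 2 or WT heat replicate 3, with an adjusted p up to 0.109, and that in hd2c in a fit of the hd2c arrays alone.

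SWEET16 rose by 0.87 ± 0.16 in hd2c and 1.04 ± 0.16 in WT (adjusted p = 4.10e-04 and 1.09e-04), while the differences in brm hd2c and brm were 0.28 and 0.23 and were not called. The test of the difference did not pass, with −0.59 ± 0.23 for brm hd2c against hd2c (adjusted p = 0.392) and −0.81 ± 0.23 for brm against WT (adjusted p = 0.185). SWEET11 fell by 0.61 ± 0.11 in brm hd2c and by 0.64 ± 0.11 in hd2c, and SWEET13 fell by 0.64 ± 0.15 in brm (adjusted p of 0.00356 or less). The values not called ran the same way, with −0.29 in brm and −0.22 in WT for SWEET11, and −0.37 in brm hd2c, −0.38 in hd2c and −0.38 in WT for SWEET13. Neither brm against WT nor brm hd2c against hd2c passed the test of a difference in these responses (adjusted p of 0.864 or more). SWEET6 rose by 0.47 in hd2c, a call that 11 of 33 alternative fits did not keep. The other 9 measured genes, SWEET2, SWEET3, SWEET5, SWEET7, SWEET8, SWEET9, SWEET10, SWEET14 and SWEET15, were called by neither BRM loss nor heat. Their differences with BRM loss ran from −0.57 for SWEET10 to 0.50 for SWEET15, and with heat from −0.39 for SWEET2 to 0.58 for SWEET15. All of these 9 but SWEET2, and also SWEET6, had group means from 1.31 to 2.48, below the lowest array median of 3.42. No detection call was used, so calls missing in them are not read as a lack of response. HD2C loss called none of the 15 in either background or condition by limma, with at most 1 in each direction at an unadjusted p under 0.05. Over all genes these comparisons called 0.00604% to 4.80%, so none of 15 is not set apart from that share.

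**Figure D3:**
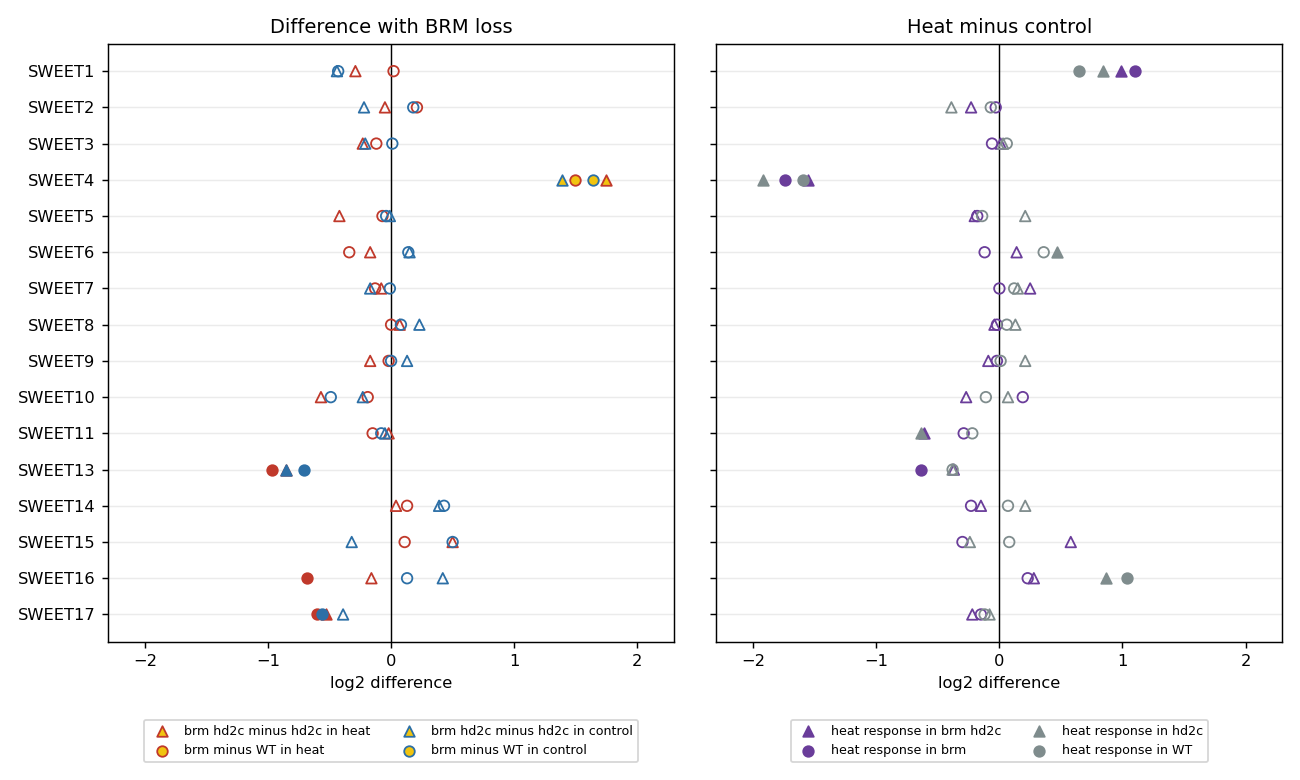
Log2 differences of 16 SWEET genes with BRM loss (left) and with heat (right); colours and shapes give the comparison as in the legends. Filled symbols passed the limma test at an adjusted p under 0.05 and open ones did not; yellow fill marks SWEET4 with BRM loss, which was not tested. SWEET4 lies between 1.39 and 1.75 on the left, where SWEET13 is between −0.97 and −0.71, and between −1.92 and −1.56 on the right.

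Few other genes of sugar metabolism had a named probe set. Of 8 loci listed as acid invertases only cwINV6 and AT1G62660 were measured. AT1G62660 fell by 0.67 ± 0.16 in brm hd2c against hd2c in heat (adjusted p = 0.0144) and by 0.62 ± 0.16 in brm against WT in heat (adjusted p = 0.0250). The first of these calls was lost in a fit of the compared groups alone and without brm hd2c replicate 3 in heat, and the other without any 1 of the WT replicates or without replicate 1 or 3 of brm in heat. In control its differences were −0.03 and −0.40 and were not called. Its heat response was called in brm hd2c alone, at −0.46 ± 0.16 (adjusted p = 0.0469), and 22 of 34 alternative fits did not keep that call. None of the 2 invertase inhibitors, 9 neutral invertases, 6 sucrose synthases and 9 sucrose proton symporters listed had a named probe set.

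Some sugar carriers of the vacuole were lower after heat, as SWEET4 was. TMT1, which loads hexoses into the vacuole, differed by −1.08 ± 0.13 in brm hd2c, −0.58 ± 0.13 in brm, −1.36 ± 0.13 in hd2c and −1.06 ± 0.13 in WT, a fall in each (adjusted p of 0.00264 or less). Its relative TMT2 was lower too, with −0.54 ± 0.11 in brm hd2c, −0.75 ± 0.11 in hd2c and −0.55 ± 0.11 in WT on the log2 scale (adjusted p of 0.00164 or less), and the difference of −0.32 in brm was not called. Of 5 measured vacuolar and other monosaccharide carriers 3 were called lower in brm hd2c, 1 in brm, 2 in hd2c and 2 in WT, where 12.1%, 8.51%, 11.2% and 7.48% of all genes were called lower. The third gene called in brm hd2c was SFP2 (−0.87 ± 0.22), which was called higher in WT (0.69 ± 0.22). Both SFP2 calls were lost when single arrays were left out, that in brm hd2c without its heat replicate 1 and that in WT without any 1 of the WT arrays. The other 2 carriers were called in no genotype, with differences from −0.05 to 0.15 for TMT3 and from −0.01 to 0.39 for SFP1. ATSPS4F, a sucrose-phosphate synthase, was lower in all 4 genotypes, with −2.04 ± 0.21 in brm hd2c, −1.24 ± 0.21 in brm, −1.96 ± 0.21 in hd2c and −2.08 ± 0.21 in WT, and it was the only measured gene of 6 listed for sucrose synthesis. APL3, a subunit of the starch enzyme ADP-glucose pyrophosphorylase, was lower in all 4 genotypes, with −0.66 in brm hd2c, −0.57 in brm, −0.96 in hd2c and −0.79 in WT, each ± 0.14. It was 1 of 2 measured loci of 12 listed as sugar-regulated. The other, AT3G15450, was lower with BRM loss in control, with −0.70 ± 0.17 in brm hd2c against hd2c and −0.79 ± 0.17 in brm against WT (adjusted p = 0.0236 and 0.00715). The first of these calls was lost in a fit of the compared groups alone and without replicate 2 or 3 of brm hd2c or replicate 1 or 3 of hd2c in control (at most changed to −0.49, adjusted p = 0.185). With heat AT3G15450 went the other way from APL3, with 0.72 ± 0.17 in brm hd2c, 1.23 ± 0.17 in brm and 0.61 ± 0.17 in WT, all called higher, and 0.39 in hd2c, not called. Its call in WT was lost without WT control replicate 1 or 2 or WT heat replicate 3, and that in brm hd2c in a fit of the compared groups alone.

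With BRM loss, TMT2 rose by 0.54 ± 0.11 in brm against WT in control and by 0.77 ± 0.11 in heat (adjusted p = 0.00515 and 1.36e-04), the same direction as SWEET4. In brm hd2c against hd2c its differences were 0.16 and 0.37, and they were not called. SFP2, a sugar carrier of the family of ERD6, rose by 0.90 ± 0.22 in brm against WT and by 1.02 ± 0.22 in brm hd2c against hd2c, both in control (adjusted p = 0.0191 and 0.00881), while its differences in heat were 0.48 and 0.21 and were not called. The first call was lost without replicate 1 or 2 of brm or replicate 1 or 3 of WT in control (lowest difference 0.76, adjusted p = 0.110), and the other without replicate 1 of brm hd2c or of hd2c in control (0.89, adjusted p = 0.0667). With HD2C loss, 3 of the 5 carriers, TMT1, TMT2 and SFP2, were called lower in brm hd2c against brm in heat. There 4.80% of all genes were called in either direction. Their differences ran from −1.17 to −0.436 over the alternative fits. Each call was lost in a fit of the compared groups alone and without brm heat replicate 3. In control, and in hd2c against WT, HD2C loss called none of the 5. Of 4 measured loci of 14 listed as hexose proton symporters none was called with BRM loss in any of the 4 comparisons by limma, with at most 1 of the 4 in a direction at an unadjusted p under 0.05. Over all genes 1.61% to 3.01% were called in each direction and 5.84% to 9.43% passed the unadjusted limit, so these counts of 4 genes are not set apart. One of the symporters, AT5G61520, was called lower with heat in brm hd2c, in brm (−0.69 ± 0.15) and in WT (−0.88 ± 0.15), and its −0.36 in hd2c was not called. It was the only 1 of the 4 called with heat, where 12.1%, 8.51% and 7.48% of all genes were called lower in brm hd2c, brm and WT.

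The genes most like each member were found by Pearson's r over the 8 group means, among 2205 other genes whose group means span at least 1. These values are descriptions, since all genes share the same 24 arrays. For SWEET4 the 5 most alike were AT1G06360 (r = 0.992), AT4G02660 (r = 0.991), AT5G45650 (r = 0.989), AT1G68570 (r = 0.988) and AT1G11330 (r = 0.985). Over the 24 arrays their r ran from 0.934 to 0.964. All of them had the 3 levels of SWEET4 in a smaller range, with spans from 1.03 to 2.33 beside 3.43 for SWEET4. AT1G68570 is listed as NPF3.1, a member of the NRT1/PTR family of transporters. Its group means in heat were 7.08 in brm hd2c, 7.02 in brm, 6.47 in hd2c and 6.28 in WT. In control they were 7.83 in brm hd2c, 7.88 in brm, 7.27 in hd2c and 7.17 in WT.

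For cwINV6 the 5 most alike were AT4G03450 (r = 0.988), AT5G09290 (r = 0.986), AT1G09480 (r = 0.985), AT3G29180 (r = 0.982) and EXPB1 (r = 0.982). Over the 24 arrays their r ran from 0.762 to 0.935. EXPB1 is a beta-expansin, a protein that loosens cell walls. Its group means in heat were 5.21 in brm hd2c, 5.39 in brm, 4.47 in hd2c and 4.17 in WT. In control they were 5.70 in brm hd2c, 5.70 in brm, 4.65 in hd2c and 4.49 in WT. SWEET4 and cwINV6 were less alike to each other, with r = 0.80 over the 8 group means and 0.745 over the 24 arrays, and cwINV6 stood at rank 377 among the genes most like SWEET4. Their heat responses were not tested against each other.

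**Figure D4:**
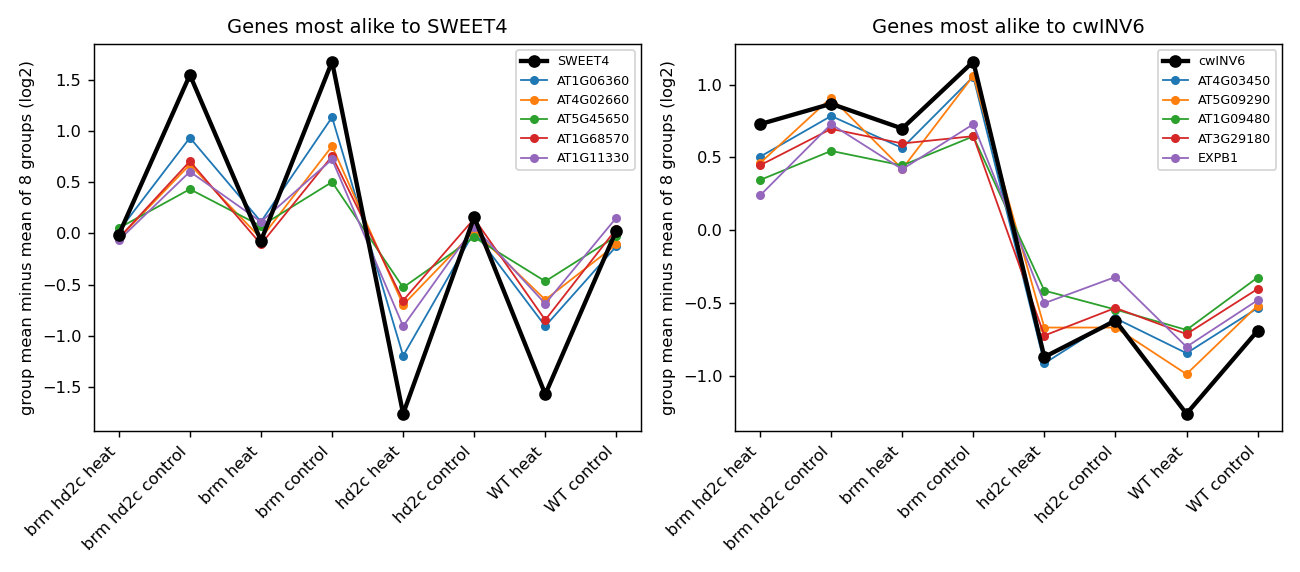
Group means minus the mean of the 8 groups (log2) for SWEET4 and the 5 genes most like it (left) and for cwINV6 and the 5 genes most like it (right); the thick black line is the member. Heat lowers every line on the left within each genotype, while the lines on the right drop mainly between the groups without BRM and those with it.

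Since BRM acts on chromatin, the genes beside each member were examined. The 3 nearest genes with a named probe set on each side were taken in the order of the reference gene table of assembly TAIR10.1. Around SWEET4 these were AT3G27970, AT3G27980 and AT3G27999 before it and AT3G28020, AT3G28040 and AT3G28120 after it. The nearest, AT3G27999 and AT3G28020, were each 2 genes away in that order, so neither gene directly next to SWEET4 was measured. AT3G28120 was 11 genes away. Around cwINV6 they were AT5G11880, AT5G11900 and AT5G11910 before it and AT5G11930, AT5G11940 and AT5G11960 after it, with AT5G11910 and AT5G11930 directly next to cwINV6. In the 4 comparisons of BRM loss with its own background, limma called 0 of 24 values around SWEET4 (1 at an unadjusted p under 0.05) and 0 of 24 around cwINV6 (3 at an unadjusted p under 0.05). Over all genes 1.61% to 3.01% were called in each direction, and 5.84% to 9.43% passed the unadjusted limit in each direction. The counts around the members take both directions together, so these shares for a single direction are too low to be set beside them. The counts around the members are thus not read as a property of the neighbourhoods.

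The differences ran from −0.96 to 0.21 around SWEET4 and from −0.23 to 0.39 around cwINV6. The members had 1.39 to 1.75 (SWEET4) and 1.48 to 1.96 (cwINV6), but they were chosen for high levels without BRM. The choice thus favours a gap between members and neighbours, and no conclusion is drawn from it. With heat, 5 of 24 values were called around SWEET4 and 7 of 24 around cwINV6. Over all genes heat called 21.5% in brm hd2c, 15.8% in brm, 20.0% in hd2c and 13.3% in WT in either direction, so these counts are not read as a property of the neighbourhoods. AT3G28120 differed by −2.07 ± 0.42 in brm hd2c, −2.67 ± 0.42 in hd2c and −1.54 ± 0.42 in WT, and AT3G28040 by −0.91 ± 0.16 in brm hd2c and −0.47 ± 0.16 in hd2c. The gene next to cwINV6, AT5G11930, differed by −0.55 ± 0.15 in brm hd2c, −0.78 ± 0.15 in hd2c and −0.48 ± 0.15 in WT, and AT5G11960 rose by 0.35 ± 0.10 in brm hd2c, 0.33 ± 0.10 in brm and 0.39 ± 0.10 in hd2c. AT5G11900 rose by 0.40 ± 0.11 in hd2c. The limma adjusted p of these called values reached up to 0.0458, for AT3G28040 in hd2c. The calls of neighbours were not tried under the alternative fits.

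**Figure D5:**
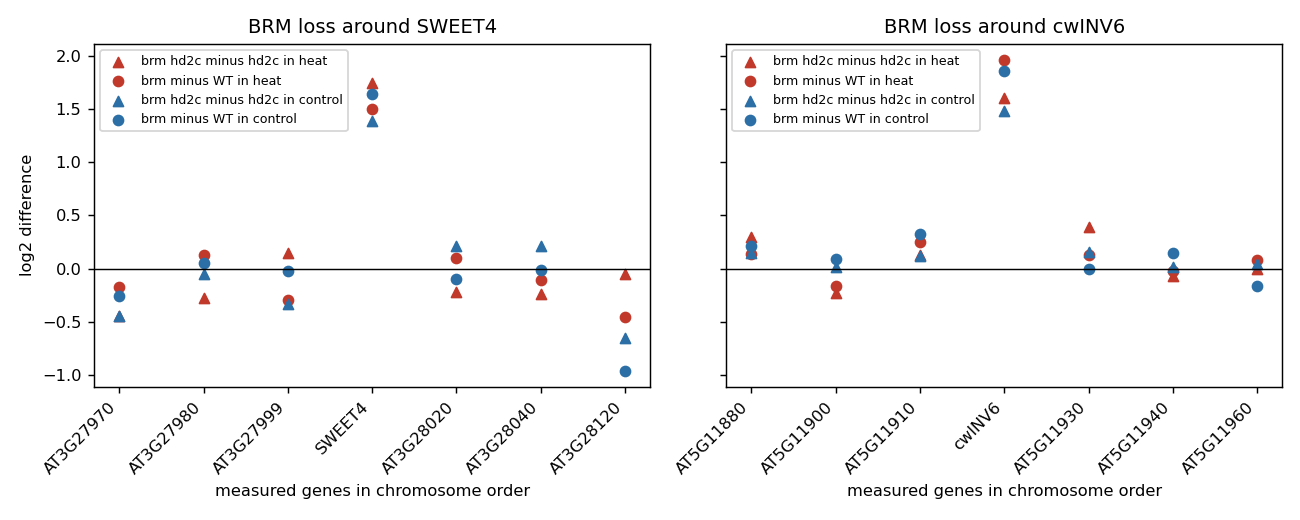
Log2 difference with BRM loss for SWEET4 (left) and cwINV6 (right), each at the centre, and for the 3 nearest measured genes on each side, evenly spaced in chromosome order; colours and shapes give the 4 comparisons. The members, chosen for high levels without BRM, stand at 1.39 or more in every comparison, and the neighbours, not so chosen, lie between −0.96 and 0.39.

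Of the measured markers only SAG101 was called in a comparison of BRM loss with its own background, and only in brm hd2c against hd2c in heat. That call was lost in a fit of the compared groups alone. SAG101 was at 4.84 ± 0.25 in brm hd2c in heat (SD, n = 3) and at 3.99 ± 0.31 in hd2c in heat, a difference of 0.85 ± 0.19 (adjusted p = 0.00674), whereas its differences in the other 3 comparisons of BRM loss with its own background were 0.61, 0.23 and 0.19 and were not called. RCA differed by −0.07 to 0.07 in these comparisons, and with heat its differences were 0.24 in brm hd2c, 0.28 in brm, 0.38 in hd2c and 0.33 in WT, each ± 0.10. Those in hd2c and WT were called, but the responses did not pass a test of the difference (adjusted p = 0.847 for brm hd2c against hd2c and 0.982 for brm against WT). The call in WT was lost in 7 of 34 alternative fits, 5 of them without 1 array (any but WT heat replicate 3), and that in hd2c in 2, among them without hd2c heat replicate 3. The part of SAG101, and of the higher RCA in heat, in the levels of SWEET4 and cwINV6 was not tested.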

How the data were processed

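Transcript levels were measured in 24 arrays, 3 for each of 8 groups, grouped by the sample titles. The authors deposited log2 intensities for 38408 probe sets. RMA and Partek stand in the submitters' processing notes, and versions, settings and genome build are not given in the sources used here. The number of arrays limits the precision.

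The probe-to-gene table names 1 gene for 16746 probe sets and several for 758, which were left out with 20904 unnamed ones. Of several probe sets of a gene the one with the highest mean was used, which left 16552 genes, 16418 of them matched to the reference table (TAIR10.1). One limma 3.58.1 model (R 4.3.3) with a mean per group (16 residual degrees of freedom, prior 6.25) gave two-sided tests. Calls used p-values adjusted over all genes (Benjamini-Hochberg), with 0.05 as the limit. The method was tested on simulated data. Matplotlib 3.10.9 drew the plots. The 2 genes, the sugar gene lists and the tests were chosen with earlier results of these data known. Called list genes (up to 4 per list and comparison), all measured SWEET genes, the 5 most alike genes and the 3 nearest on each side were named, and those presented are a part.

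The alternatives were 3 scalings, a filter on dim genes, an intensity trend, no moderation, array weights, fits of the compared groups or of all probe sets, the replicate block, and each array left out.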

Additional observations from a re-analysis of the deposited data

How the results depend on the processing

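Each difference of SWEET4 and cwINV6 was recomputed under 34 alternatives, 1224 values in all. In 1222 it kept its side of the threshold, or, where no test was made, moved by less than the SD between replicates. Many alternatives cannot move a given difference, such as leaving out an array of a group not compared, so this count overstates the check. The filter on dim genes kept a gene by its highest group mean, so cwINV6 passed it only through the groups without BRM, for which it was chosen. The heat response of cwINV6 in WT was −0.564 with an adjusted p of 0.0155 in a fit of the WT arrays alone, where the spread of the other groups does not enter, and its adjusted p was 0.144 to 0.466 with single arrays left out. With single arrays left out, its heat response ran from −0.383 to 0.136 in brm hd2c and from −0.696 to −0.0295 in brm, never past the threshold. The difference of cwINV6 between brm and WT in heat ranged from 1.72 to 2.39 with single arrays left out, the highest without brm heat replicate 1. The heat response of SWEET4 lay between −2.03 and −1.48 in all 4 genotypes, with an adjusted p of at most 1.20e-04. The deviations of same-numbered arrays from their group means had a median correlation of 0.0322 (84 pairs, −0.225 to 0.409). For arrays of different number the median was −0.0199 (168 pairs, −0.351 to 0.255), so same-numbered arrays were slightly more alike. The numbers were not taken to pair the arrays in the main fit, and a replicate block was tried as an alternative. With the replicate block, the heat response of SWEET4 had the same values (−1.60 in WT and −1.74 in brm) and no call of either gene changed. Of 67 calls of other listed genes, tried under the same alternatives after the data were seen, 34 were kept in every alternative, 33 were lost in at least 1, and none changed direction. SWEET4 and cwINV6 have 1 named probe set each, so no second probe set could be tried. Log2 intensities near the low end, as for cwINV6 with BRM present, limit how large a fold can be read.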
